A study of Mus musculus with 6 samples.

Results

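The genes examined here are 48 regulators of DNA methylation, Polycomb silencing and chromatin remodeling, taken by gene name from a table of 58735 genes. They comprise DNA methyltransferases, TET dioxygenases, a methyl-CpG reader, subunits of the Polycomb repressive complexes PRC1 and PRC2, subunits of the SWI/SNF remodelers, CHD remodelers, and writers, erasers and silencing factors that act on histones. All 48 were expressed highly enough to be tested. RNA-Seq was performed on 22Rv1, a human prostate cancer cell line, given vehicle (parental, *n* = 3), and on the 22Rv1 BL-B01D1_R subline, which had been made resistant by growing 22Rv1 in rising concentrations of BL-B01D1 (resistant, *n* = 3). BL-B01D1 is a bispecific antibody that binds EGFR and HER3 and carries a camptothecin-type inhibitor of topoisomerase I. The resistant libraries came from 1 selected line, whether the drug was present at harvest is not given in the sources used here, and no source says that the libraries of a group came from separate cultures, so p-values measure only the spread between these libraries, which may be technical. The sample labels name mouse as the organism, but the gene identifiers are human and the counts are placed on hg38.

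These regulators set which parts of the genome can be read. *DNMT1* copies cytosine methylation onto newly made DNA, *DNMT3A* and *DNMT3B* place it anew, and the TET enzymes oxidize it toward removal. PRC2 methylates histone H3 at silent developmental genes, PRC1 reads that mark and ubiquitinates histone H2A, and the SWI/SNF complexes use ATP to slide or evict nucleosomes and so oppose Polycomb. In prostate cancer, a high level of *EZH2* is a known feature of advanced disease, and losses of chromatin regulators are among its recurrent alterations.

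Library totals ranged from 13821639 to 17251491 counts, so that 3 counts corresponded to 0.174 to 0.216 CPM (counts scaled to 1e+06 per library, after edgeR's TMM adjustment for composition). The 11 markers of 22Rv1 were all expressed, with summed levels of 3820 to 3901 CPM in parental and 4261 to 4346 CPM in resistant libraries. By the test described below, at a false discovery rate of less than 0.05, 7 of the 11 were higher in resistant cells and 3 lower. Of all genes tested, 17.1% were higher and 18.4% lower. Leukocyte markers summed to 1.57 to 2.50 CPM in parental and 1.21 to 1.91 CPM in resistant libraries with *CD3E* at 0, and endothelial markers to 0 to 0.0720 and 0 to 0.185 CPM with *CDH5* and *KDR* at 0. Fibroblast markers summed to 112 to 115 CPM in parental and 39.6 to 44.7 CPM in resistant libraries, most of it from *LUM*, while *FAP* was at 0. The share of counts on mitochondrial genes was 4.198% ± 0.00586 in parental and 5.266% ± 0.14 in resistant cells (mean ± SD). Their part in the results was not tested. In bulk RNA, fewer cells of a type and less RNA per cell cannot be told apart.

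To ask how far this machinery differed between resistant and parental cells, each gene was compared with edgeR's quasi-likelihood test. The differences were small. Of the 48 regulators, 16 passed a false discovery rate (FDR) of less than 0.05, which is 33.3% of them beside 35.5% of all 17142 genes tested. The split by direction was uneven, with 3 higher in resistant cells (6.25%, beside 17.1% of all genes tested) and 13 lower (27.1%, beside 18.4%). *KDM5B*, *EZH1* and *SMARCA4* rose. *HDAC9*, *CBX2*, *DNMT3B*, *SUZ12*, *DNMT1*, *KDM1A*, *SMARCD3*, *PBRM1*, *SMARCA2*, *EZH2*, *SMARCB1*, *TRIM28* and *ARID1A* fell.

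None of the 48 passed the study's threshold of an FDR of less than 0.05 with an absolute log2 fold change greater than 1, which 5.37% of all genes tested passed (2.53% higher and 2.84% lower). *HDAC9* came closest, at a log2 fold change of -0.91. limma-voom, DESeq2 and limma on log2(FPKM + 1) gave the same count of 0, and at an unadjusted edgeR p under 0.05, with no limit on the fold change, the count was 21, or 43.8% of the 48, beside 43.4% of all genes tested. The median log2 fold change of the 48 was -0.04, and 31 of them lay below 0, beside a median of 0.00 over all genes tested. The median size of the log2 fold change was 0.08, beside 0.17 for all genes tested and 0.12 for the 10416 genes with a mean of at least 10 CPM, a level that 46 of the 48 reached. Of those 10416 genes, 43.6% passed an FDR of less than 0.05 (21% higher and 22.6% lower), and 1.9% also passed an absolute log2 fold change of 1 (1.08% higher and 0.816% lower). Of the 16 regulators that passed, 15 had an absolute log2 fold change under 0.35.

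Of the 32 genes that did not pass, 30 had a 95% interval of the log2 fold change that stayed within a fold of 1.2 in either direction, or 0.263 on the log2 scale. The other two were *TET1*, with an interval of -0.41 to 0.14, and *CHD4*, with an interval of -0.10 to 0.31. Together the 48 genes took 0.6291% ± 0.00562 of the counts in parental and 0.5969% ± 0.00382 in resistant libraries. The ranges did not overlap, and the exact permutation test gave p = 0.1, the smallest value that 3 against 3 allows (two-sided).

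**Figure D1:**
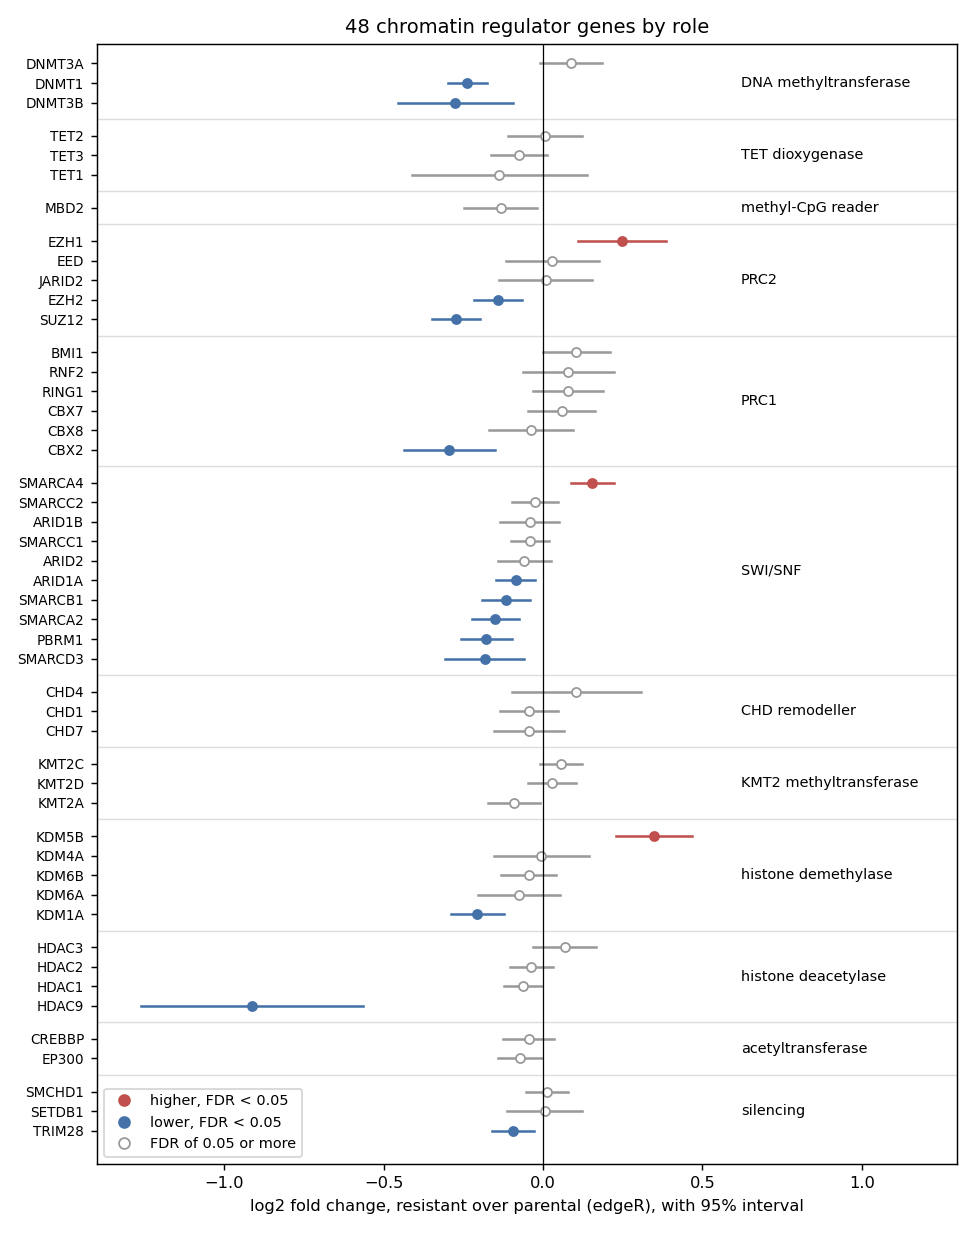
Log2 fold change (resistant over parental, edgeR, x axis) of the 48 regulators, grouped by role on the y axis, with points for estimates and lines for 95% intervals. Most points lie close to 0, 3 genes passed as higher and 13 as lower, and HDAC9 at -0.91 stands farthest from 0.

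Among the DNA methyltransferases, the maintenance enzyme was lower. The ratio of *DNMT3A* over *DNMT3B*, which place new methylation, was higher in every resistant library than in any parental library. With 3 libraries against 3, no ratio could pass a test at 0.05. This one gave the smallest possible value (exact permutation p = 0.1, or 0.3 after Benjamini-Hochberg adjustment). *DNMT1* fell by 15.2%, from 371 to 388 CPM in parental libraries to 313 to 334 CPM in resistant libraries (log2 fold change -0.24, SE 0.0299, FDR 1.69e-08). It was the most abundant of the 3 per unit length, at a mean of 38.8 FPKM in parental and 32.9 FPKM in resistant cells (CPM divided by gene length in kilobases). *DNMT3B* was present at 19.0, 20.7 and 20.9 CPM in parental libraries 1 to 3 and at 16.2, 15.4 and 18.2 CPM in resistant libraries 1 to 3. The groups did not overlap, and *DNMT3B* fell by 17.4% (log2 fold change -0.28, SE 0.0894, FDR 0.0134). Its FDR was 0.0503 without parental library 2, 0.0561 without resistant library 1 and 0.0850 without resistant library 2. *DNMT3A* was at 64.9, 68.2 and 70.0 CPM in parental and at 70.5, 71.2 and 73.8 CPM in resistant libraries, and did not pass the test (log2 fold change 0.09, FDR 0.165), although its groups did not overlap.

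The TET enzymes and the reader *MBD2*, which recruits repressors to methylated DNA, did not pass the test by edgeR, limma-voom or DESeq2, and at an unadjusted edgeR p under 0.05 only *MBD2* did. *TET2* had a log2 fold change of 0.01, *TET3* of -0.08 and *TET1* of -0.14 (FDR 0.942, 0.180 and 0.475). *TET1* was the least expressed of these enzymes, at 0.965 FPKM in parental cells beside 3.32 FPKM for *TET2* and 8.48 FPKM for *TET3*. *MBD2* came closest, at 54.7 to 62.9 CPM in parental and 51.1 to 55.3 CPM in resistant libraries (log2 fold change -0.13, FDR 0.0650). It passed without parental library 2 (log2 fold change -0.19, FDR 0.0186), and lay at -0.08 without parental library 1 (FDR 0.342) and at -0.10 without resistant library 1 (FDR 0.285).

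Within PRC2, the catalytic subunits *EZH2* and *EZH1* changed in opposite directions and the scaffold subunit *SUZ12* fell. *SUZ12*, on chromosome 17 of hg38 (31937018 to 32001045, plus strand), was at 137, 139 and 138 CPM in parental libraries 1 to 3 and at 115, 115 and 113 CPM in resistant libraries 1 to 3. The groups lay far apart relative to their spread, and *SUZ12* fell by 17.3% (log2 fold change -0.27, SE 0.0372, FDR 9.37e-08). A pseudogene, *SUZ12P1*, held 1782 counts over the 6 libraries beside 12035 for *SUZ12*, and how reads shared by the pair were divided is not given in the sources used here.

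*EZH2*, on chromosome 7 (148807383 to 148884321, minus strand), was at 137, 143 and 142 CPM in parental and at 129, 129 and 124 CPM in resistant libraries. It fell by 9.42% (log2 fold change -0.14, SE 0.0374, FDR 0.00222) without overlap between the groups. *EZH1*, the catalytic subunit found mainly in cells that divide little, is on chromosome 17 (42700275 to 42745049, minus strand). It was at 30.3, 32.9 and 31.0 CPM in parental and at 39.7, 36.8 and 35.2 CPM in resistant libraries, all 3 of the latter above the former, and rose by 18.7% (log2 fold change 0.25, SE 0.0682, FDR 0.00364). The remaining 2 genes of the complex did not pass the test. *EED*, which binds the mark that PRC2 places, had a log2 fold change of 0.03 (FDR 0.806) and *JARID2*, which helps to recruit the complex, of 0.01 (FDR 0.945).

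The genes that work with PRC2 outside the 48 lay on the same side as *EZH2* and *SUZ12*. Of 8 such genes tested, 5 fell and all 8 had a log2 fold change below 0, so that 7 of the 13 PRC2 genes tested in all fell and 1, *EZH1*, rose. Of all genes tested 18.4% fell, and of those with a mean of at least 10 CPM 22.6%. Both sets of PRC2 genes were chosen with earlier results of these data known, so their direction is not independent evidence. *EPOP*, which links PRC2 to elongin, went from 39.9, 37.7 and 42.7 CPM in parental libraries to 23.4, 24.2 and 25.8 CPM in resistant libraries (log2 fold change -0.71, SE 0.0711, FDR 5.85e-11). *PHF19*, a Polycomb-like subunit and one chosen for mention after its values were seen, went from 80.3, 82.6 and 89.1 CPM to 49.8, 55.7 and 51.9 CPM (log2 fold change -0.68, SE 0.0524, FDR 3.71e-14). Both dropped further than any of the PRC2 genes among the 48. *PHF1*, *RBBP7* and *RBBP4*, also named after their values were seen, had log2 fold changes of -0.20, -0.17 and -0.14 (FDR 0.00787, 4.47e-05 and 0.000205). *PHF1* no longer passed without parental library 3 (FDR 0.0612).

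**Figure D2:**
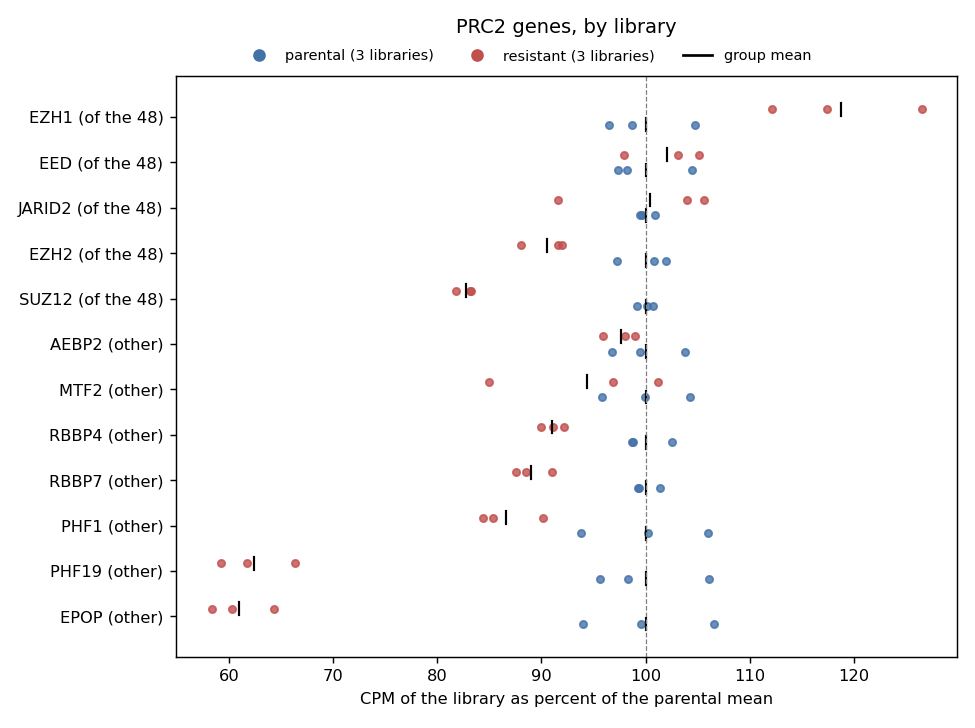
Level of 12 PRC2 genes with a mean of at least 10 CPM in each library, as a percent of the parental mean of that gene (x axis), with dots for the 3 libraries of each group and bars for group means. EZH1 is the only gene here whose resistant libraries all lie above its parental libraries, while EPOP and PHF19 lie lowest, at 24.5 and 52.5 CPM in resistant cells beside 40.1 and 84.0 CPM in parental cells.

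Of the 6 PRC1 genes among the 48, 1 passed the test (16.7%). That compares with 35.5% of all genes tested and 43.6% of those with a mean of at least 10 CPM, which all 6 reached. Of 19 other PRC1 genes tested, in the wider list below, 4 rose and 5 fell. *CBX2*, a chromobox subunit that reads the PRC2 mark, was at 38.5, 37.3 and 37.1 CPM in parental libraries 1 to 3 and at 32.7, 27.1 and 32.0 CPM in resistant libraries 1 to 3. Resistant library 2 was the lowest, the groups did not overlap, and *CBX2* fell by 18.5% (log2 fold change -0.29, SE 0.0704, FDR 0.000844). Its neighbor on chromosome 17, *CBX8*, a chromobox subunit of the same kind, was at 36.6, 34.7 and 35.6 CPM in parental and at 33.9, 36.4 and 33.8 CPM in resistant libraries, and these ranges overlapped (log2 fold change -0.04, FDR 0.704). The ubiquitin ligases *RING1* and *RNF2* both had a log2 fold change of 0.08 (FDR 0.283 and 0.418). *CBX7* had one of 0.06 and *BMI1*, the partner of the ligase that raises its activity, of 0.10 (FDR 0.417 and 0.113).

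Of the 10 SWI/SNF genes, 6 changed, in small steps, beside 35.5% of all genes tested and 43.6% of those with a mean of at least 10 CPM, which all 10 reached. Its ATPases moved apart. *SMARCA4* (BRG1), on chromosome 19 (10960825 to 11079426, plus strand), was at 226, 225 and 241 CPM in parental libraries 1 to 3 and at 263, 261 and 246 CPM in resistant libraries 1 to 3, and rose by 11.3% (log2 fold change 0.15, SE 0.0334, FDR 0.000269). *SMARCA2* (BRM), on chromosome 9 (1980290 to 2193624, plus strand), was at 169, 160 and 168 CPM in parental and at 150, 154 and 144 CPM in resistant libraries, and fell by 9.92% (log2 fold change -0.15, SE 0.0363, FDR 0.000943). Neither gene's groups overlapped.

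The other SWI/SNF genes that passed the test all fell. *SMARCD3*, a subunit of the heart and muscle forms of the complex, had the largest log2 fold change in this role, going from 52.4, 47.5 and 53.2 CPM in parental to 47.8, 45.1 and 41.8 CPM in resistant libraries. Resistant library 1 lay just above parental library 2, so the groups overlapped (log2 fold change -0.18, SE 0.0611, FDR 0.0163). The FDR of *SMARCD3* was 0.0536 without parental library 1, 0.0806 without parental library 3 and 0.132 without resistant library 3. *PBRM1*, the bromodomain subunit of the PBAF form, was at 153 to 159 CPM in parental and 130 to 148 CPM in resistant libraries (log2 fold change -0.18, SE 0.0392, FDR 0.000319).

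*SMARCB1*, a core subunit lost in rhabdoid tumors, was at 139 to 148 CPM in parental and 131 to 133 CPM in resistant libraries (log2 fold change -0.12, SE 0.0369, FDR 0.0113), with an FDR of 0.0904 without parental library 2. *ARID1A*, the DNA-binding subunit of the BAF form and the most abundant SWI/SNF gene by counts, was at 473 to 517 CPM in parental and 461 to 484 CPM in resistant libraries, which overlapped (log2 fold change -0.09, SE 0.0300, FDR 0.0213). *ARID1A* did not pass without parental library 2, without parental library 3, without resistant library 1 or without resistant library 3 (FDR 0.126, 0.139, 0.0691 and 0.116). *ARID1B*, *ARID2*, *SMARCC1* and *SMARCC2* had log2 fold changes of -0.04, -0.06, -0.04 and -0.03 and did not pass the test. Several of these genes overlap others whose reads may have been shared, since the strand setting of the counting is not given in the sources used here. *PBRM1*, with 14007 counts over the 6 libraries, overlaps *GNL3* with 14321, *SMARCD3*, with 4574, overlaps *CHPF2* with 4357, and *SMARCB1*, with 13112, overlaps *DERL3* with 1283. *SMARCC2*, with 14266 counts, overlaps *MYL6* with 33646.

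**Figure D3:**
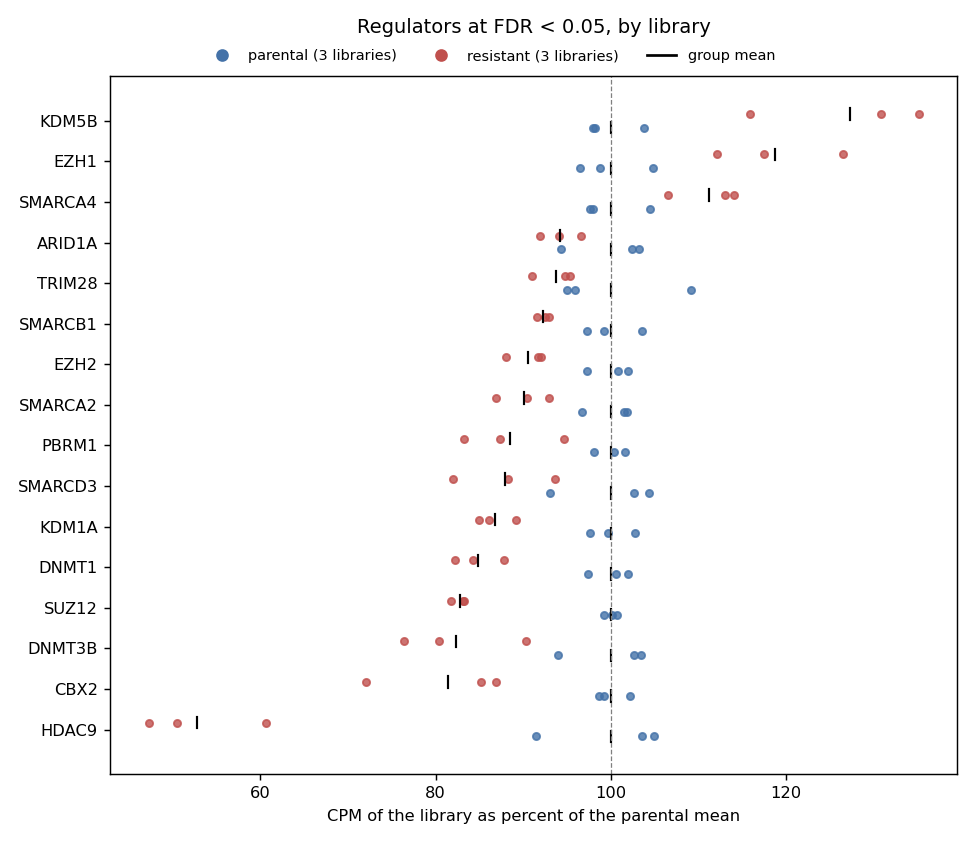
Level in each library of the 16 regulators with an FDR of less than 0.05, as a percent of the parental mean of that gene (x axis), with dots for the 3 libraries of each group and bars for group means. The resistant libraries of 13 genes lie wholly outside the parental range, and those of ARID1A, SMARCD3 and TRIM28 overlap it.

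No CHD remodeler or KMT2 methyltransferase passed the test, by edgeR, limma-voom or DESeq2, and at an unadjusted edgeR p under 0.05 only *KMT2A* did. *CHD1*, *CHD4* and *CHD7*, ATPases that move nucleosomes, had log2 fold changes of -0.04, 0.10 and -0.05 (FDR 0.497, 0.464 and 0.569). *CHD4*, the motor of the NuRD complex, was listed with 1462 counts over the 6 libraries, or 14.1 to 18.2 CPM, and shares its strand and part of its span with other listed genes, and how reads there were counted is not given in the sources used here. *KMT2A*, *KMT2C* and *KMT2D*, which methylate histone H3 at promoters and enhancers, had log2 fold changes of -0.09, 0.06 and 0.03 (FDR 0.0758, 0.185 and 0.599). *KMT2C* was at 194 to 195 CPM in parental and 202 to 203 CPM in resistant libraries, so its groups did not overlap although the gene did not pass the test. *KMT2A* passed without parental library 1 (FDR 0.0266) and without resistant library 2 (FDR 0.0292), and its log2 fold change was -0.04 without resistant library 1 (FDR 0.508) and -0.05 without parental library 2 (FDR 0.398).

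Among the histone demethylases, *KDM5B* rose and *KDM1A* fell. *KDM5B* (JARID1B), which removes methyl groups from histone H3 at active promoters and is known as a marker of slowly cycling cells in melanoma, is on chromosome 1 (202724495 to 202809470, minus strand). It was at 44.6, 44.7 and 47.3 CPM in parental libraries 1 to 3 and at 59.5, 61.5 and 52.8 CPM in resistant libraries 1 to 3. Every resistant library was above every parental library, and *KDM5B* rose by 27.3%, the largest rise of the 48 (log2 fold change 0.35, SE 0.0593, FDR 6.97e-06). On the log2(FPKM + 1) scale, *KDM5B* rose by 0.23 with limma (FDR 0.0424). *KDM1A* (LSD1), a demethylase that works with the androgen receptor and with repressor complexes, went from 105 to 111 CPM in parental to 91.7 to 96.2 CPM in resistant libraries (log2 fold change -0.21, SE 0.0413, FDR 8.92e-05). *KDM4A*, and *KDM6A* and *KDM6B*, which erase the mark of PRC2, had log2 fold changes of -0.01, -0.08 and -0.05 and did not pass the test (FDR 0.960, 0.393 and 0.439).

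*HDAC9* carried the largest difference of the 48 by edgeR. This class IIa histone deacetylase, on chromosome 7 (18086949 to 19002416, plus strand), was counted 102, 114 and 93 times in parental libraries 1 to 3 and 65, 45 and 53 times in resistant libraries 1 to 3. These counts correspond to 5.92, 6.79 and 6.70 CPM and to 3.92, 3.06 and 3.27 CPM, so the groups did not overlap. *HDAC9* fell by 46.9% (log2 fold change -0.91, 95% interval -1.26 to -0.57, SE 0.172, FDR 3.62e-05). It was also the least abundant of the 48, with a mean of 0.384 FPKM in parental and 0.203 FPKM in resistant cells. With each library left out in turn, its log2 fold change ranged from -1.03 to -0.84 and passed the threshold of 1 without resistant library 1. On the log2(FPKM + 1) scale, which understates the change of low genes, limma gave *HDAC9* a log2 fold change of -0.2027 (FDR 0.0159). That was smaller in size than those of *SUZ12* (-0.26), *CBX2* (-0.26), *DNMT1* (-0.23), *KDM5B* (0.23), *DNMT3B* (-0.22) and *EZH1* (0.2046). Class I deacetylases *HDAC1*, *HDAC2* and *HDAC3*, the enzymes of the main corepressor complexes, had log2 fold changes of -0.06, -0.04 and 0.07 (FDR 0.0941, 0.416 and 0.30). *HDAC1* was at 94.6 FPKM in parental cells and passed the test without parental library 1 (log2 fold change -0.09, FDR 0.0200) but was at -0.04 without parental library 2 (FDR 0.378).

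The acetyltransferases *EP300* and *CREBBP*, coactivators of the androgen receptor and many other factors, had log2 fold changes of -0.07 and -0.05 (FDR 0.0942 and 0.409). *EP300* was at 174 CPM in the parental libraries and at 162 to 169 CPM in the resistant libraries. Of the silencing factors, *TRIM28*, the corepressor of KRAB zinc finger proteins and the most abundant regulator per unit length, was at 749, 653 and 659 CPM in parental and 655, 625 and 651 CPM in resistant libraries. Parental library 1 stood above the other 5, and the groups overlapped (log2 fold change -0.09, SE 0.0328, FDR 0.0219). Without parental library 1 the log2 fold change of *TRIM28* was -0.03 (FDR 0.504), and without resistant library 2 its FDR was 0.159. *SETDB1*, the methyltransferase recruited by *TRIM28*, which with 4911 counts overlaps *CERS2* with 17161, had a log2 fold change of 0.00 and *SMCHD1*, which maintains silencing of the inactive X chromosome, of 0.01.

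Counting by the libraries themselves, 17 of the 48 genes (35.4%) had groups that did not overlap, 6 higher and 11 lower, beside 44.8% of all genes tested (22.1% higher and 22.8% lower) and 52.2% of those with a mean of at least 10 CPM (25.2% higher and 27% lower). They were 13 of the 16 genes that passed the test and, of the rest, *DNMT3A*, *KMT2C* and *HDAC3* on the higher side and *EP300* on the lower. Of the 16, 11 kept an FDR of less than 0.05 with each of the 6 libraries left out in turn. The 5 that did not were *DNMT3B*, *ARID1A*, *SMARCB1*, *SMARCD3* and *TRIM28*, with the values given above. Against a minimum fold of 1.2, tested with glmTreat, only *HDAC9* passed. In simulated counts this test recovered 87 of 100 genes changed by 1 on the log2 scale but 1 of 100 changed by 0.3. Of the 16, only *HDAC9*, *KDM5B*, *CBX2*, *DNMT3B* and *SUZ12* had an estimate beyond a fold of 1.2, or 0.263 on the log2 scale. The test counts smaller changes as no difference, so the estimates of the others could not pass it. Recovery by glmTreat at the expression levels of the 48 was not tested separately.

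Several of these genes come in pairs of relatives that take the same place in a complex or carry out the same reaction. For 12 such pairs the ratio of FPKM was taken within each library, a measure that does not depend on library scaling. In 4 pairs the ratios of the groups did not overlap. *EZH2* over *EZH1* was 6.97, 6.74 and 7.07 in parental libraries 1 to 3 and 5.04, 5.40 and 5.44 in resistant libraries 1 to 3, a mean of 6.93 ± 0.169 beside 5.29 ± 0.223 (SD, log2 difference -0.39). Per unit length, *EZH2* was the more abundant transcript in every library. *SMARCA4* over *SMARCA2* was 1.58, 1.66 and 1.69 in parental and 2.07, 1.99 and 2.01 in resistant libraries (log2 difference 0.30).

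*DNMT3A* over *DNMT3B* was 1.32, 1.27 and 1.29 in parental and 1.67, 1.78 and 1.56 in resistant libraries (log2 difference 0.37). *CBX2* over *CBX8* was 0.769, 0.789 and 0.763 in parental and 0.706, 0.545 and 0.694 in resistant libraries (log2 difference -0.27), with resistant library 2 the lowest. Without that library the log2 difference of *CBX2* over *CBX8* was -0.14. Each of the 4 gave p = 0.1 in the two-sided exact permutation test, the smallest value that 3 against 3 allows, and p = 0.3 after Benjamini-Hochberg adjustment over the 12 pairs. The remaining 8 pairs were *ARID1A* over *ARID1B*, *SMARCC1* over *SMARCC2*, *HDAC1* over *HDAC2*, *CREBBP* over *EP300*, *TET2* over *TET3*, *RNF2* over *RING1*, *KDM6A* over *KDM6B* and *KMT2C* over *KMT2D*. Their groups overlapped, with log2 differences of -0.04 to 0.08.

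**Figure D4:**
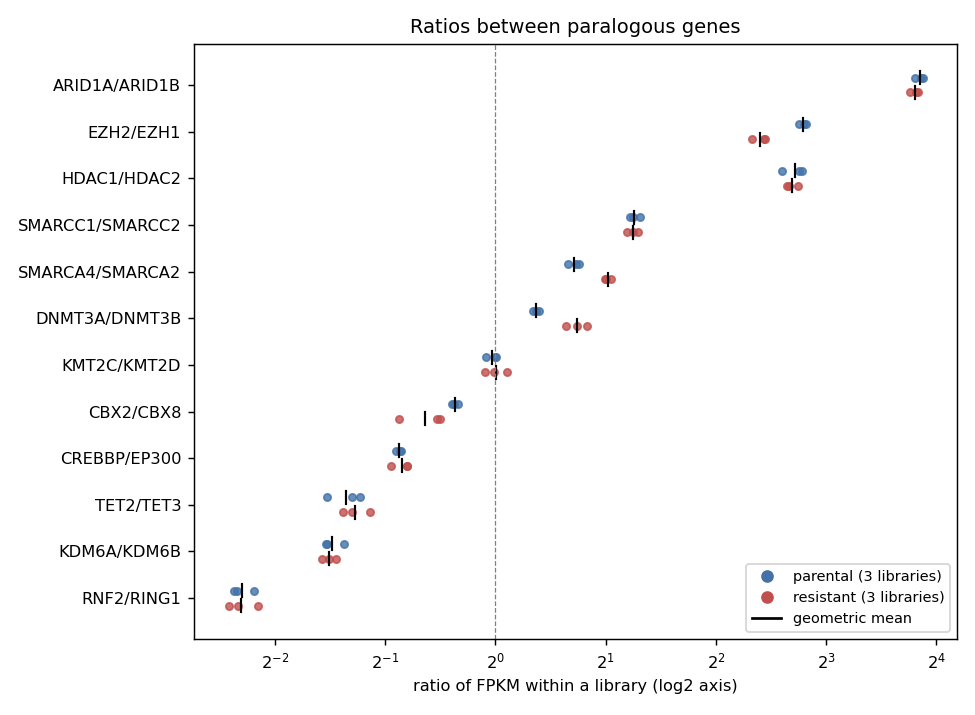
Ratio of FPKM between the 2 genes of each of 12 pairs, within each library (x axis, log2 scale), with dots for the 3 libraries of each group. The groups separate for EZH2/EZH1, SMARCA4/SMARCA2, DNMT3A/DNMT3B and CBX2/CBX8 and overlap for the other 8 pairs.

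A wider list of 163 other chromatin genes, of which 162 were tested, was also compared, without a test of the difference between the lists. Of these, 64 passed an FDR of less than 0.05, 10 of them higher (6.17%) and 54 lower (33.3%), beside the 17.1% and 18.4% of all genes tested. Their median log2 fold change was -0.06. The list was chosen with earlier results of these data known, so its direction is not independent evidence. By role, 5 of 8 PRC2 genes, 12 of 22 histone methyltransferases and 4 of 12 DNA methylation genes fell, with none of these rising, also at an unadjusted p under 0.05. At an FDR of less than 0.05 none rose either among SWI/SNF genes (5 of 18 fell), COMPASS subunits (2 of 7) and H2A deubiquitinase genes (2 of 6). Each other role had a gene that rose, and PRC1 genes split with 4 rising and 5 falling of 19. The only genes of the wider list past an absolute log2 fold change of 1 were *AUTS2*, a PRC1 partner, and *ASXL3*, a partner of the deubiquitinase that removes the PRC1 mark. *AUTS2* went from 1.51, 1.91 and 2.38 CPM to 0.845, 0.884 and 0.370 CPM (log2 fold change -1.45, FDR 0.00119). *ASXL3* went from 2.67, 4.70 and 2.81 CPM to 1.93, 1.70 and 1.36 CPM (log2 fold change -1.03, FDR 0.00133), but to a log2 fold change of -0.72 with an FDR of 0.0514 without parental library 2.

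After these, the lowest of the wider list at an FDR of less than 0.05 were *DPF1*, a SWI/SNF subunit (-0.91), *CECR2*, a bromodomain partner of the ISWI ATPases (-0.78), and *EPOP* (-0.71). *DPF1* did not pass without resistant library 1 (log2 fold change -0.69, FDR 0.0794). The 5 highest at an FDR of less than 0.05 were the remodelers *CHD5* (0.34) and *SMARCA1* (0.30), the deacetylase *SIRT7* (0.27), the demethylase *KDM4B* (0.25) and the acetyltransferase *KAT2B* (0.19). *KAT2B*, with an FDR of 0.0496, fell short in 5 of the 6 fits that left out a library. Partners of *DNMT1* chosen after their values were seen also fell, *UHRF1*, which brings *DNMT1* to newly copied DNA, with a log2 fold change of -0.25 (FDR 1.47e-06) and the remodeler *HELLS* with -0.11 (FDR 0.0161). *HELLS* did not pass without parental library 2 (FDR 0.134) or without resistant library 2 (FDR 0.0925).

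Genes of DNA replication and mitosis were mostly lower in resistant cells. Of 30 listed, 23 fell and none rose, beside 18.4% lower and 17.1% higher of all genes tested, with a median log2 fold change of -0.22. This list too was chosen with earlier results of these data known. At an unadjusted edgeR p under 0.05, 1 was higher, *CCNE2*, cyclin E2 (log2 fold change 0.19, FDR 0.0584), which passed without parental library 1 (FDR 0.0129) and without resistant library 1 (FDR 0.0260). limma-voom and DESeq2 also found none higher. The lowest was *CCNB2*, cyclin B2, at 99.8 to 104 CPM in parental and 76.6 to 81.0 CPM in resistant libraries (log2 fold change -0.37, FDR 3.43e-09). The least lowered of the 23 was *TOP2A* (log2 fold change -0.09, FDR 0.00885), which did not pass without resistant library 3 (FDR 0.0591). *DNMT1*, *UHRF1*, *EZH2*, *SUZ12* and *CBX2* are known to be higher in dividing cells, and the part of this movement in their values was not tested.

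**Figure D5:**
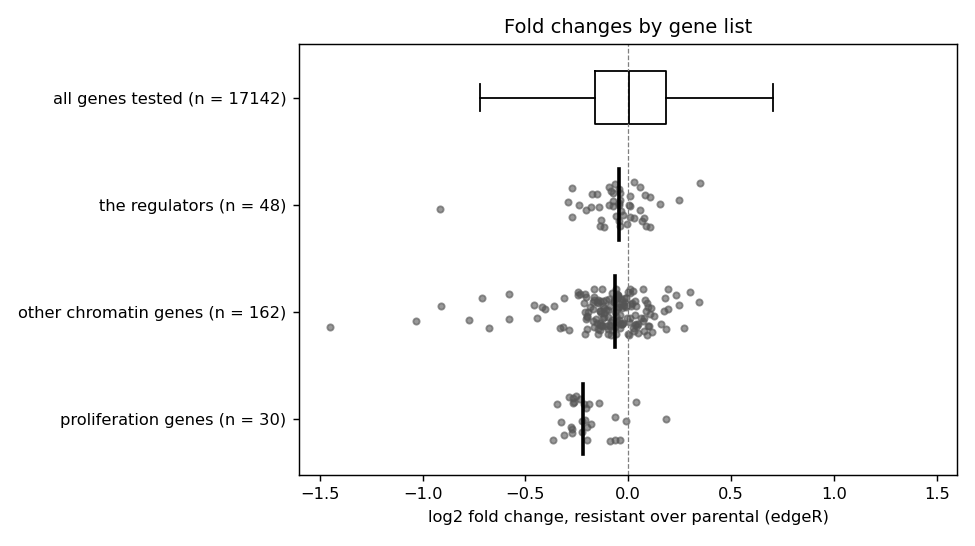
Log2 fold changes (resistant over parental, edgeR, x axis) of all genes tested, drawn as a box with quartiles and with whiskers at the 5th and 95th percentile, and of the single genes of the 3 lists as dots. The medians are 0.00 for all genes tested, -0.04 for the 48 regulators, -0.06 for the other chromatin genes and -0.22 for the proliferation genes.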

How the data were processed

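mRNA was purified from total RNA with oligo-dT and sequenced on an Illumina NovaSeq instrument. Per the paper and the submitters' processing notes, reads were trimmed with fastp, mapped to hg38 with HISAT2 2.0.5 and assigned to genes with featureCounts 1.5.0-p3. The authors deposited raw counts per gene, together with gene length in bases (another quantity, 1 value per gene). The annotation release and strand setting are not given in the sources used here. Columns named Parent were matched by number to the vehicle samples. Columns of per-sample values left unused numbered 0.

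The deposited counts were filtered with filterByExpr, which kept 17142 of the 34035 genes with a count, scaled with TMM and compared with edgeR 4.0.16 in R 4.3.3 (quasi-likelihood test, Benjamini-Hochberg adjustment over all genes tested, biological coefficient of variation 3.51%). limma (3.58.1), the package named in the paper's methods, was used for alternatives. FPKM was computed from counts, gene length and the TMM-scaled library size. Ratios of pairs and shares of counts were compared with exact permutation tests. Floors of 3 counts cover counting error only.

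Alternatives were limma-voom, DESeq2 (1.42.0), limma on log2(FPKM + 1), glmTreat against a fold of 1.2, library size alone, the upper quartile, all genes without a filter, a minimum of 10 counts in each library, protein-coding genes alone, the replicate block, and leaving out each library. Fits were tested on simulated counts. There edgeR recovered 90 of 100 genes changed by 1 on the log2 scale and 49 of 100 changed by 0.3, with 7 false calls. The 48 genes, the wider chromatin list, the proliferation list and the pairs were chosen with earlier results of these data known, so that their direction is not independent evidence. Values in every library are given for the gene with the largest absolute log2 fold change at an FDR of less than 0.05 in each role, for genes past an absolute log2 fold change of 1 and for pairs whose groups did not overlap. Other members of the 48 are given by fold change, range or count. Of the wider list, the genes past a log2 fold change of 1 and the 5 highest and 5 lowest are named, and of the proliferation genes the highest and lowest. Genes outside this rule are marked as chosen after their values were seen. No sequence is printed, and 1 list of cell type markers is not reported here.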

Additional observations from a re-analysis of the deposited data

How the results depend on the processing

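Of 768 values of the 48 regulators under the alternatives, 703 kept their direction and their side of an FDR of 0.05, 36 lost it, 8 gained it and 21 changed sign, all 21 in genes that had not passed. The main counts were 3 higher and 13 lower. limma on log2(FPKM + 1) gave 3 higher and 7 lower, losing *DNMT3B*, *ARID1A*, *SMARCA2*, *SMARCB1*, *SMARCD3* and *TRIM28*, so that 30% of its calls were higher beside 18.8% by edgeR. It moved *HDAC9* from -0.91 to -0.20 and *KDM5B* from 0.35 to 0.23, and it gave 34 lower of the wider chromatin list beside 54. glmTreat against a fold of 1.2 gave 0 higher and 1 lower of the 48, 0 higher and 11 lower of the wider list and 2 lower of the proliferation genes beside 23. DESeq2 lost *ARID1A* (FDR 0.0523) and *TRIM28* (FDR 0.339). Library size alone moved the median log2 fold change of all genes from 0.00 to -0.01 and added *MBD2*, *KMT2A*, *HDAC1* and *EP300* to those lower. With protein-coding genes alone, 1 proliferation gene, *CCNE2*, was higher (FDR 0.0325).

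With library size alone, the median log2 fold change of all genes went from 0.003787 to -0.01231. There the log2 fold changes of *TET2*, *JARID2*, *SETDB1* and *SMCHD1* changed sign, from 0.007003, 0.00838, 0.004589 and 0.01074 to -0.009037, -0.007704, -0.01162 and -0.005263. With protein-coding genes alone the log2 fold change of *KDM4A* changed sign, from -0.006122 to 0.007661. With each library left out in turn, those that crossed 0 were *TET2* (-0.04122 to 0.04997), *JARID2* (-0.02806 to 0.06905), *RING1* (-0.008728 to 0.1382), *ARID1B* (-0.08953 to 0.0004642), *CHD4* (-0.00783 to 0.1762), *KMT2D* (-0.01488 to 0.08055), *KDM4A* (-0.04177 to 0.05768), *KDM6B* (-0.08224 to 0.01728), *SETDB1* (-0.05346 to 0.03487) and *SMCHD1* (-0.01319 to 0.03018). Why single libraries moved these values was not tested. In the same fits, 3 of the 48 were higher each time and 11 to 13 lower, 0 to 1 passed an absolute log2 fold change of 1 as lower, namely *HDAC9* without resistant library 1, and 0 to 2 proliferation genes were higher, namely *CCNE2* and *CDK1* without parental library 1 and *CCNE2* without resistant library 1. All 84 ratios of pairs under other settings stayed within 1 SD, the SD of the more variable group. Leaving out 1 of 3 libraries cannot shift a group mean by that much, so for those fits this limit could not be crossed. The log2 difference of *CBX2* over *CBX8* moved from -0.27 to -0.14 without resistant library 2.

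The replicate numbers are shared by the groups, but same-numbered libraries did not deviate together (correlations of -0.00806, -0.0196 and -0.0157). With the replicate number as a block, 3 of the 48 were higher and 13 lower, as without it, and 5883 of all genes passed, beside 6081. With 3 libraries of 1 line in each group, the spread does not cover a repeated selection, and at totals of 13821639 to 17251491 counts *HDAC9* and *TET1*, under 10 CPM on average, were measured least precisely.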
